A study of Danio rerio with 6 samples.

Results

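The 10 genes of tendon and of the myotendinous junction, the site where a muscle fiber inserts into tendon, were followed in RNA-seq of whole *mgt* and WT zebrafish larvae. They are *scxa*, *tnmd*, *xirp2a*, *tnc*, *thbs4a*, *thbs4b*, *thbs1b*, *postnb*, *fn1a* and *fn1b*. The genes were chosen by name and role, with earlier results of these data known. All 10 were found among the 32520 genes of the table. Total RNA came from 3 pools of 60 *mgt* larvae and, as WT, 3 pools of 60 AB larvae, all taken at 4 days post fertilization (dpf). The *mgt* (*maggot*) line carries a chemically induced change in *plod3*, which encodes a lysyl hydroxylase and glycosyltransferase of collagens. The sample labels call the line a *plod3* KO. The study uses that name too, and describes an allele with a missense change among several *mgt* alleles, and which of them was sequenced is not given in the labels.

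In the trunk of a fish larva, muscle fibers pull on the connective tissue sheets between the segments. Scleraxis (*scxa*) is a transcription factor of tendon progenitors, and tenomodulin (*tnmd*) is a membrane glycoprotein of differentiated tendon cells. The matrix they face holds tenascin-C, thrombospondins, periostin and fibronectin around fibrillar collagen, and muscle fibers hold on to it through integrins and dystroglycan. Muscle and tendon matrix were among the tissues the study examined in the mutant, with an antibody against thrombospondin 4 as its tendon stain.

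All *mgt* libraries belong to batch 2 and all WT libraries to batch 1, so the number of batches holding both genotypes is 0, and genotype and batch cannot be told apart in any value given here. Values are RPKM, in which the reads on a gene are divided by its length and by the library total. The totals, recovered from the values of very short genes, were such that 1 RPKM stood for 38.35 to 50.27 reads per kilobase, depending on the library. The labels and a figure legend of the study call the pools biological replicates, while another of its legends calls them technical. SD and p-values therefore measure the spread between these 6 libraries, which may be technical. Because whole larvae were used, fewer cells of a type and less RNA per cell cannot be told apart. The first principal component held 82.5% of the variance, and on it WT replicate 1 lay 0.45 of the way from the other WT libraries toward *mgt*. The authors' WT means matched WT replicates 2 and 3 without replicate 1. Here WT replicate 1 was kept unless stated.

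*plod3* itself (chromosome 23, 44843860 to 44879214 of GRCz11) had 23.92, 24.28 and 24.37 RPKM in *mgt* and 16.76, 15.34 and 14.21 RPKM in WT. Its log2 fold change was 0.63 (SE 0.096, limma with Benjamini-Hochberg adjustment, adjusted p = 0.0044). That is 0.35 above the median of all genes tested, which was 0.29. With the libraries scaled by median-of-ratios factors it was 0.34 (limma adjusted p = 0.039). An RNA level does not show a base change, and the labels do not say which *mgt* allele was sequenced, so it is no check of the labels.

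Of the members, 6 rose in *mgt*, 2 fell and 2 did not pass the test. The fibronectin genes *fn1b* and *fn1a* had the highest fold changes of the 10, followed by *thbs1b* and *tnc*, while *tnmd* and *xirp2a* were lower than in WT. Calls were made with limma and required an adjusted p under 0.05 together with a fitted level of RPKM + 0.5 at least 25% higher in one genotype than in the other. Among the 20435 genes tested, 47.4% were called in either direction, 31.8% higher and 15.6% lower, against 8, 6 and 2 of the 10 members. The *mgt* and WT libraries did not overlap in 8 members, 6 higher and 2 lower, where 63.4% of all genes did not overlap, 41.7% higher and 21.6% lower. These shares are descriptions, because the members were chosen with earlier results known. The median log2 fold change was 0.47 over the members and 0.29 over all genes tested. Each member's fold change is therefore also given relative to that shift of 0.29.

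The balance of calls over all genes depended on scaling. Of the called genes, 67.0% were higher in *mgt* as deposited, 49.5% with median-of-ratios factors, 46.7% with quantile normalization and 82.2% with libraries rescaled to the same sum. The median of all genes was 0.03 on the log2 scale with median-of-ratios factors and 0.49 with the same sum. As deposited 8 members were called, 6 higher and 2 lower. With median-of-ratios factors 6 were called, 4 higher and 2 lower, where 48.1% of all genes were called, 23.8% higher and 24.3% lower. With the same sum per library 7 members were higher and 0 lower (43.1% and 9.33% of all genes). With quantile normalization 6 were higher and 2 lower (22.9% and 26.1% of all genes). *fn1a*, *fn1b*, *thbs1b* and *tnc* were called higher in all 17 alternatives per member, which include each scaling and each left-out library. At a stricter linear fold threshold of 2.378, *tnc* was no longer called.

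**Figure D1:**
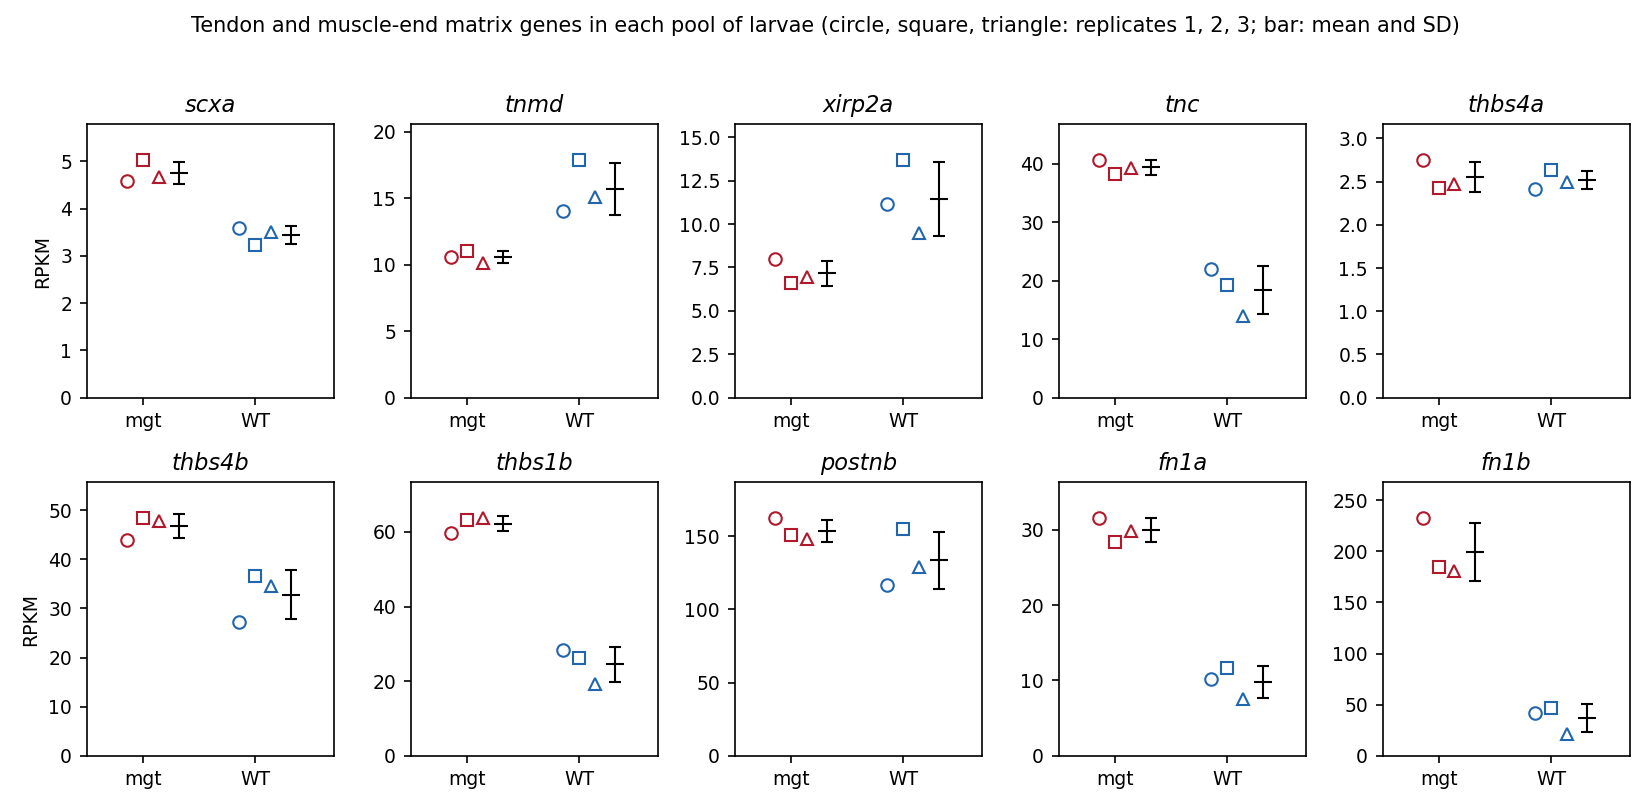
RPKM of the 10 genes in each library, 1 panel per gene on a linear axis from 0, *mgt* left (red) and WT right (blue), with circle, square and triangle for replicates 1, 2 and 3 and bars for mean and SD. Points of *mgt* and WT intermingle for *thbs4a* and *postnb*, and lie apart for the other 8 genes.

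*scxa* (ENSDARG00000035695, chromosome 19, 3001473 to 3009570), the zebrafish scleraxis gene expressed in tendon progenitors, had 4.59, 5.03 and 4.67 RPKM in *mgt* and 3.6, 3.23 and 3.5 RPKM in WT. The lowest *mgt* library exceeded the highest WT library, with little spread on either side. The mean was 4.76 ± 0.23 in *mgt* and 3.44 ± 0.19 in WT (SD, n = 3 each), and *scxa* rose with a log2 fold change of 0.42 (SE 0.114, limma with Benjamini-Hochberg adjustment, adjusted p = 0.026). Relative to the shift of all genes its difference was 0.13, and its fold change stood at the percentile 57.1 of all genes tested. The call ended with median-of-ratios factors (0.15, adjusted p = 0.36) and with quantile normalization (0.01, adjusted p = 0.95) in limma. It also ended without *mgt* replicate 1, 2 or 3 (limma adjusted p = 0.087, 0.12 and 0.095) and without WT replicate 2 or 3 (0.071 and 0.054).

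*scxb*, the paralog of *scxa*, went the other way. It had 0.93, 0.99 and 0.61 RPKM in *mgt* and 1.63, 1.86 and 1.84 RPKM in WT, and fell with a log2 fold change of -0.77 (SE 0.151, limma with Benjamini-Hochberg adjustment, adjusted p = 0.0095). The ratio of *scxa* to *scxb* within a library was 4.94, 5.08 and 7.66 in *mgt* and 2.21, 1.74 and 1.9 in WT, without overlap. Such ratios do not change when a library is multiplied by 1 factor, although they do under quantile normalization. The 15 ratios computed were picked after the values had been seen and are given as descriptions. With 3 libraries against 3 an exact two-sided permutation test cannot go below p = 0.10.

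*tnmd* (ENSDARG00000052615, chromosome 14, 40641350 to 40722928), which encodes tenomodulin, had 10.59, 11.01 and 10.12 RPKM in *mgt* and 14.04, 17.86 and 15.11 RPKM in WT. All *mgt* libraries were below all WT libraries, and WT replicate 2 was the highest. The mean was 10.6 ± 0.44 in *mgt* and 15.7 ± 1.97 in WT (SD, n = 3 each). *tnmd* fell with a log2 fold change of -0.54 (SE 0.118, limma with Benjamini-Hochberg adjustment, adjusted p = 0.014), or -0.83 relative to the shift of all genes. The call ended with the same sum per library (-0.31, adjusted p = 0.068) and without *mgt* replicate 1, 2 or 3 (limma adjusted p = 0.057, 0.053 and 0.064).

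The tendon genes stood in another proportion to each other in *mgt*. The ratio of *scxa* to *tnmd* was 0.433, 0.457 and 0.461 in *mgt* and 0.256, 0.181 and 0.232 in WT, so the regulator was higher relative to the late marker in each *mgt* library. *tnmd* per RPKM of *col1a1a*, a chain of the type I collagen that tendon, bone and skin share, was 0.0161, 0.0175 and 0.0169 in *mgt* and 0.0322, 0.0315 and 0.0315 in WT. That ratio varied little within either genotype. *col1a1a* had 628.6 ± 29.1 RPKM in *mgt* and 494.3 ± 67.3 RPKM in WT (SD, n = 3 each) and was not called (log2 fold change 0.35, limma adjusted p = 0.052).

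On the muscle side, *xirp2a* (ENSDARG00000071113, chromosome 6, 10170241 to 10233650) encodes a Xin repeat protein that binds actin at the ends of muscle fibers. It had 7.98, 6.58 and 6.93 RPKM in *mgt* and 11.17, 13.69 and 9.47 RPKM in WT. The groups did not overlap, and WT replicate 3 was the WT library nearest to *mgt*. With a mean of 7.16 ± 0.73 in *mgt* and 11.4 ± 2.12 in WT (SD, n = 3 each), *xirp2a* fell by 0.63 on the log2 scale (SE 0.159, limma with Benjamini-Hochberg adjustment, adjusted p = 0.021), and its difference relative to the shift was -0.92. The call ended with the same sum per library (-0.41, adjusted p = 0.093), without *mgt* replicate 1, 2 or 3 (limma adjusted p = 0.051, 0.083 and 0.078) and without WT replicate 2 (-0.50, adjusted p = 0.053). Its relatives *xirp1* and *xirp2b* had log2 fold changes of 0.33 and 0.31 and were not called (limma adjusted p = 0.10 and 0.16).

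Skeletal muscle RNA varied in the same libraries. The 14 muscle markers found had 15 entries, because *myhz1.1* is listed under 2 gene identifiers. The summed RPKM of these entries ranged from 24800 to 26400 in *mgt* and from 22000 to 36600 in WT, with WT replicate 1 the lowest. Of the 15 entries 1 was called higher and 2 were called lower, where 31.8% of all genes were called higher and 15.6% lower. When WT replicate 1 was left out, 1 was higher and 9 were lower, where 52.0% of all genes were called higher and 18.2% lower. With quantile normalization 6 were higher and 1 was lower, where those shares were 22.9% and 26.1%. *xirp2a* per 1000 RPKM of that sum was 0.302, 0.259 and 0.28 in *mgt* and 0.508, 0.422 and 0.258 in WT, and here the groups overlapped (exact two-sided permutation p = 0.40). For *nrap*, an anchoring protein of the same muscle fiber ends, the ratio was 0.195, 0.175 and 0.18 in *mgt* and 0.525, 0.444 and 0.356 in WT, with no overlap.

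Tenascin-C is a matrix glycoprotein of embryonic tendon and of the sheets between muscle segments. *tnc* (ENSDARG00000021948, chromosome 5, 28560847 to 28679135) had 40.67, 38.22 and 39.33 RPKM in *mgt* and 22.04, 19.28 and 13.98 RPKM in WT. The lowest *mgt* library was well above the highest WT library, and WT replicate 3 was the lowest. The mean was 39.4 ± 1.23 in *mgt* and 18.4 ± 4.10 in WT (SD, n = 3 each), a ratio of 2.14. *tnc* rose with a log2 fold change of 1.099 (SE 0.168, 95% CI 0.70 to 1.50, limma with Benjamini-Hochberg adjustment, adjusted p = 0.0045), which is 0.81 above the shift. It spans the longest stretch of genome of the 10 genes, 118.0 kb, and with the trend of RPKM on gene span removed its log2 fold change was 0.65 (limma adjusted p = 0.011).

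Within a library *tnc* was also higher relative to *tnmd* and to *postnb*, the only genes it was set against in a ratio. The ratio of *tnc* to *tnmd* was 3.84, 3.47 and 3.89 in *mgt* and 1.57, 1.08 and 0.925 in WT. For *tnc* to *postnb* it was 0.25, 0.253 and 0.266 in *mgt* and 0.188, 0.125 and 0.109 in WT. In both ratios WT replicate 1 was the WT library nearest to *mgt*.

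The thrombospondins are secreted glycoproteins that bind collagen, integrins and other matrix proteins. Thrombospondin 4b is laid down at the junction in zebrafish and is needed there for firm attachment of muscle. *thbs4b* (ENSDARG00000020072, chromosome 21, 5129513 to 5162687) had 43.94, 48.43 and 47.9 RPKM in *mgt* and 27.2, 36.67 and 34.53 RPKM in WT. All *mgt* libraries were higher, and WT replicate 1 was the lowest of the 6. The mean was 46.8 ± 2.45 in *mgt* and 32.8 ± 4.97 in WT (SD, n = 3 each), a ratio of 1.43. *thbs4b* rose with a log2 fold change of 0.515 (SE 0.131, 95% CI 0.20 to 0.83, limma with Benjamini-Hochberg adjustment, adjusted p = 0.021). Relative to the shift of all genes the log2 difference was 0.23. The call ended with median-of-ratios factors (0.21, adjusted p = 0.44), with the span trend removed (0.41, adjusted p = 0.057) and without *mgt* replicate 1, 2 or 3 (limma adjusted p = 0.059, 0.082 and 0.080).

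Its paralog *thbs4a* (ENSDARG00000102777, chromosome 5, 51909740 to 51945554) was the lowest of the 10 genes in both genotypes. It had 2.75, 2.43 and 2.47 RPKM in *mgt* and 2.42, 2.63 and 2.5 RPKM in WT, and the libraries of the genotypes were interleaved. The log2 fold change was 0.01 (SE 0.117, limma with Benjamini-Hochberg adjustment, adjusted p = 0.92), and the 95% interval of the fold was 0.831 to 1.23 as deposited. Relative to the shift of all genes the difference was -0.27, and the fold change stood at the percentile 34.5 of all genes tested. The sign of the fold change itself was negative under several alternatives, among them median-of-ratios factors (-0.24) and quantile normalization (-0.37). *thbs4b* exceeded *thbs4a* in each library, by 16.0, 19.9 and 19.4 times in *mgt* and 11.2, 13.9 and 13.8 times in WT.

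*thbs1b* (ENSDARG00000010785, chromosome 20, 29036328 to 29052391) encodes a thrombospondin 1, a form known in mammals for activating latent TGF-beta and for restraining blood vessel growth. It had 59.81, 63.23 and 63.72 RPKM in *mgt* and 28.21, 26.08 and 19.16 RPKM in WT. The *mgt* libraries lay close together and far above WT, where replicate 3 was again the lowest. The mean was 62.25 ± 2.13 in *mgt* and 24.5 ± 4.73 in WT (SD, n = 3 each), a ratio of 2.54. *thbs1b* rose with a log2 fold change of 1.35 (SE 0.152, 95% CI 0.98 to 1.71, limma with Benjamini-Hochberg adjustment, adjusted p = 0.0016), which is 1.06 above the shift.

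The order of these thrombospondins differed between the genotypes. The ratio of *thbs1b* to *thbs4b* was 1.36, 1.31 and 1.33 in *mgt* and 1.04, 0.711 and 0.555 in WT. *thbs1b* was therefore the higher of the pair in each *mgt* library, and *thbs4b* in all WT libraries except replicate 1. *thbs1b* was measured beside 7 endothelial markers, all 7 of which were called higher (5 with median-of-ratios factors), with a summed RPKM of 48.4 to 52.4 in *mgt* and 24.6 to 28.2 in WT. Leukocyte markers, 4 of 7 called higher (2 with median-of-ratios factors), summed to 30.4 to 33.2 RPKM in *mgt* and 20.6 to 26.8 RPKM in WT. Over all genes tested, 31.8% were called higher as deposited and 23.8% with median-of-ratios factors. The median log2 fold change was 0.79 over the endothelial and 0.47 over the leukocyte markers, beside 0.29 over all genes. The part of endothelial cells and leukocytes in the *thbs1b* value was not tested.

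Periostin, a matrix protein of tendon, bone and skin, was abundant. *postnb* (ENSDARG00000104267, chromosome 15, 32710094 to 32741733) had 162.4, 150.87 and 147.92 RPKM in *mgt* and 117.0, 154.64 and 128.75 RPKM in WT. WT replicate 2 lay among the *mgt* libraries, so the groups overlapped. The log2 fold change was 0.21 (SE 0.122, limma with Benjamini-Hochberg adjustment, adjusted p = 0.18), with a 95% interval of the fold of 0.945 to 1.42 and a difference of -0.08 relative to the shift of all genes. *postnb* was called higher with the same sum per library (0.45, adjusted p = 0.020) and with quantile normalization (0.43, adjusted p = 0.015), and its sign was negative with median-of-ratios factors (-0.09, adjusted p = 0.74) in limma.

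The paralog *postna* had 20.41, 18.92 and 17.28 RPKM in *mgt* and 36.13, 37.38 and 29.24 RPKM in WT. It fell with a log2 fold change of -0.84 (SE 0.127, limma with Benjamini-Hochberg adjustment, adjusted p = 0.0044). The ratio of *postnb* to *postna* was 7.96, 7.97 and 8.56 in *mgt* and 3.24, 4.14 and 4.4 in WT. Of 10 epidermal markers 9 were called lower, where 15.6% of all genes were. All 10 summed to 4160 to 4700 RPKM in *mgt* and 14800 to 15700 RPKM in WT, and their part in the *postna* value was not tested.

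Fibronectin is the early matrix that cells assemble through integrins, and in zebrafish both genes act at the boundaries between somites. *fn1a* (ENSDARG00000019815, chromosome 9, 15362300 to 15424639), which is also needed for heart tube formation, had 31.58, 28.44 and 29.84 RPKM in *mgt* and 10.23, 11.63 and 7.49 RPKM in WT. No WT library came near the *mgt* range. The mean was 29.95 ± 1.57 in *mgt* and 9.78 ± 2.11 in WT (SD, n = 3 each), a ratio of 3.06. *fn1a* rose with a log2 fold change of 1.59 (SE 0.165, 95% CI 1.19 to 1.98, limma with Benjamini-Hochberg adjustment, adjusted p = 0.0012), which is 1.30 above the shift and at the percentile 96.4 of all genes tested.

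*fn1b* (ENSDARG00000006526, chromosome 1, 5504128 to 5543065) had 232.55, 185.06 and 180.95 RPKM in *mgt* and 42.24, 46.7 and 20.88 RPKM in WT. It was the most spread of the 10 genes within both genotypes, with a CV of 14.4% in *mgt* and 37.7% in WT, yet the lowest *mgt* library was far above the highest WT library. The mean was 199.5 ± 28.7 in *mgt* and 36.6 ± 13.8 in WT (SD, n = 3 each). *fn1b* rose with a log2 fold change of 2.50 (SE 0.304, 95% CI 1.78 to 3.23, limma with Benjamini-Hochberg adjustment, adjusted p = 0.0021), a fold of 3.42 to 9.38. That is 2.21 above the shift, and 79 of the 20435 genes tested (0.387%) had a log2 fold change at or above it.

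**Figure D2:**
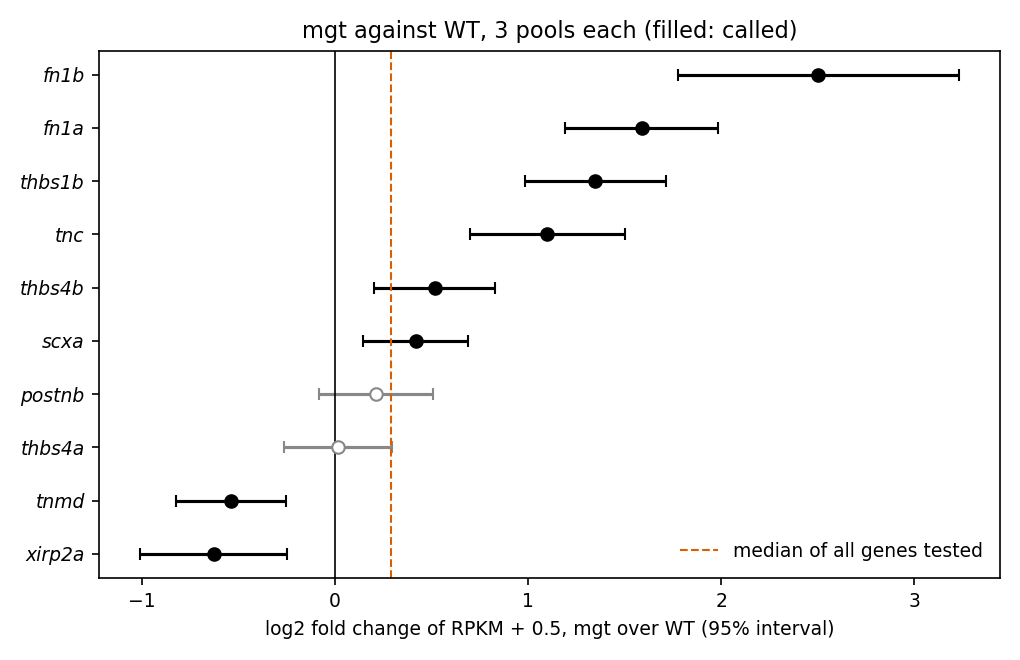
Log2 fold change of RPKM + 0.5, *mgt* over WT, of the 10 genes with 95% confidence intervals from limma, beside 0 and the median of all genes tested (0.29). *fn1b* is highest at 2.50 and *xirp2a* lowest at -0.63.

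The fibronectin genes did not keep their proportion. The ratio of *fn1b* to *fn1a* was 7.36, 6.51 and 6.06 in *mgt* and 4.13, 4.02 and 2.79 in WT, without overlap. Against *postnb*, *fn1b* stood at 1.43, 1.23 and 1.22 in *mgt* and 0.361, 0.302 and 0.162 in WT. In RPKM of RNA *fn1b* was therefore above *postnb* in each *mgt* library and below it in each WT library. Per RPKM of *col1a1a*, *fn1b* was 0.354, 0.294 and 0.302 in *mgt* and 0.0969, 0.0822 and 0.0436 in WT, while for *thbs4b* the same ratio overlapped between the genotypes (0.0668, 0.0771 and 0.0799 in *mgt*, 0.0624, 0.0646 and 0.072 in WT).

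**Figure D3:**
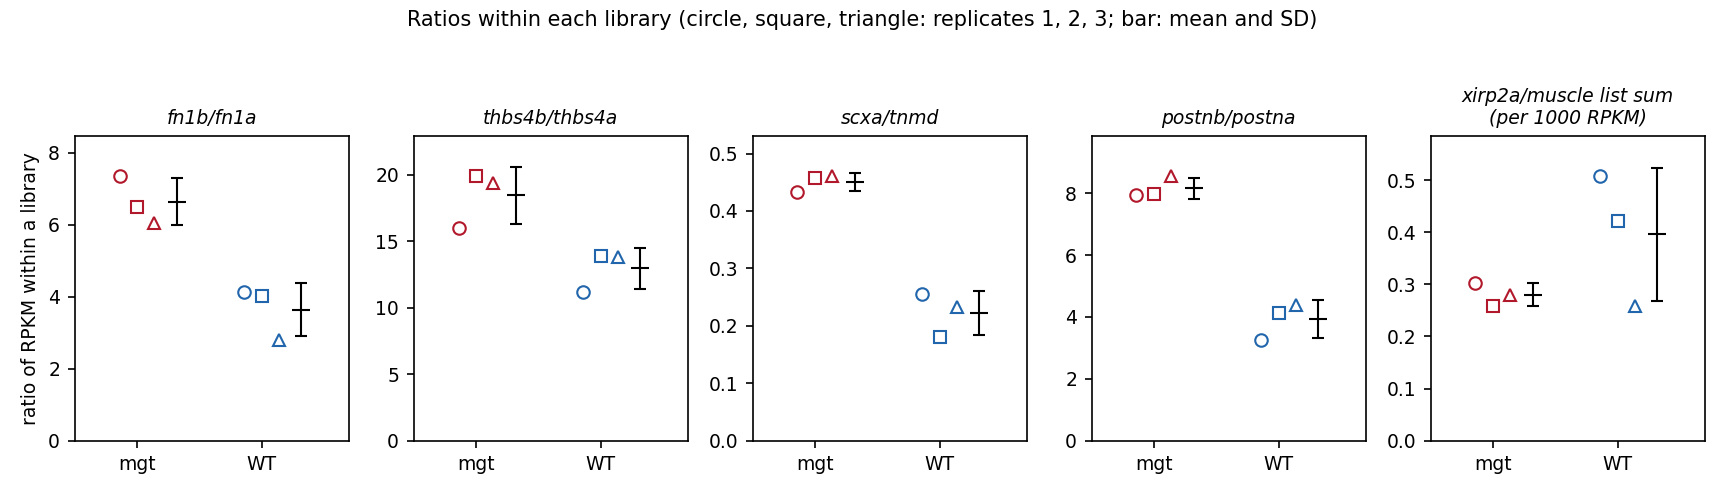
Ratios of RPKM within each library for *fn1b* to *fn1a*, *thbs4b* to *thbs4a*, *scxa* to *tnmd*, *postnb* to *postna*, and *xirp2a* per 1000 RPKM of summed muscle markers, on linear axes from 0, *mgt* left (red) and WT right (blue), with symbols for replicates and bars for mean and SD. The genotypes are apart in the first 4 panels and overlap in the last.

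Markers of other tissues differed as well. Over all genes tested, 31.8% were called higher and 15.6% lower as deposited, and 23.8% and 24.3% with median-of-ratios factors. In mammals plasma fibronectin comes from the liver. Of 10 liver markers 2 were called higher and 5 lower, with a summed RPKM of 3900 to 4170 in *mgt* and 5470 to 9020 in WT. The largest part of that sum was *apoa2*, with a mean of 2690 RPKM in *mgt* and 5075 RPKM in WT. The liver markers called higher were *fga* and *fgb* (log2 fold changes 0.81 and 0.60, limma adjusted p = 0.013 and 0.043). With median-of-ratios factors 0 of the liver markers were called higher and 5 lower. Cartilage markers, 10 of 13 called higher and none lower, summed to 1920 to 2020 RPKM in *mgt* and 775 to 985 RPKM in WT. Of 6 heart markers 3 were called higher and none lower, with a summed RPKM of 115 to 123 in *mgt* and 67.6 to 103 in WT, and the called ones were *nppb*, *nppa* and *myh6* (log2 fold changes 2.14, 1.40 and 1.29). The tendon marker list shares *scxa*, *tnmd*, *thbs4b* and *postnb* with the genes described here, so it is no independent check. Its 7 genes summed to 1100 to 1200 RPKM in *mgt* and 807 to 1020 RPKM in WT. The largest part was *col1a1a*, which bone and skin share, with a mean of 628.6 RPKM in *mgt* and 494.3 RPKM in WT. As deposited 4 of the 7 were called higher and 1 lower, and with median-of-ratios factors 0 higher and 1 lower. The defining genes of the list, *scxa* and *tnmd*, were detected in each library. No marker was at 0 in all libraries. The part of these tissues in the fibronectin and tenascin values was not tested.

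By level, *mgt* larvae held *fn1b* first, then *postnb*, *thbs1b*, *thbs4b*, *tnc*, *fn1a*, *tnmd*, *xirp2a*, *scxa* and *thbs4a*, and no neighbors in that order overlapped. WT larvae held *postnb* first, then *fn1b*, *thbs4b*, *thbs1b*, *tnc*, *tnmd*, *xirp2a*, *fn1a*, *scxa* and *thbs4a*. There *fn1b* and *thbs4b*, *thbs4b* and *thbs1b*, *thbs1b* and *tnc*, *tnc* and *tnmd*, and *xirp2a* and *fn1a* overlapped. In RPKM, *fn1b* stood at the percentile 98.6 of all genes tested in *mgt* and 92.8 in WT, and *fn1a* at 90.4 in *mgt* and 73.3 in WT. *tnmd* stood at 70.2 in *mgt* and 83.0 in WT.

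Replicates of most of these genes were tighter in *mgt*. The CV was 3.11% to 14.4% in *mgt* and 4.21% to 37.7% in WT, and it was the higher in WT for 9 of the 10 genes. The share of all genes with the higher CV in WT is not given here, so this cannot be read as particular to the members. WT replicate 1 was higher than the mean of the other WT libraries in *fn1b* by 0.43, in *tnc* by 0.41 and in *thbs1b* by 0.33 on the log2 scale, and for *thbs4b* and *postnb* the differences were -0.38 and -0.27. Set against WT replicate 1 alone, *mgt* differed by 2.22 in *fn1b*, 1.50 in *fn1a*, 1.13 in *thbs1b* and 0.82 in *tnc*, and set against the other WT libraries by 2.65, 1.63, 1.46 and 1.24.

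**Figure D4:**
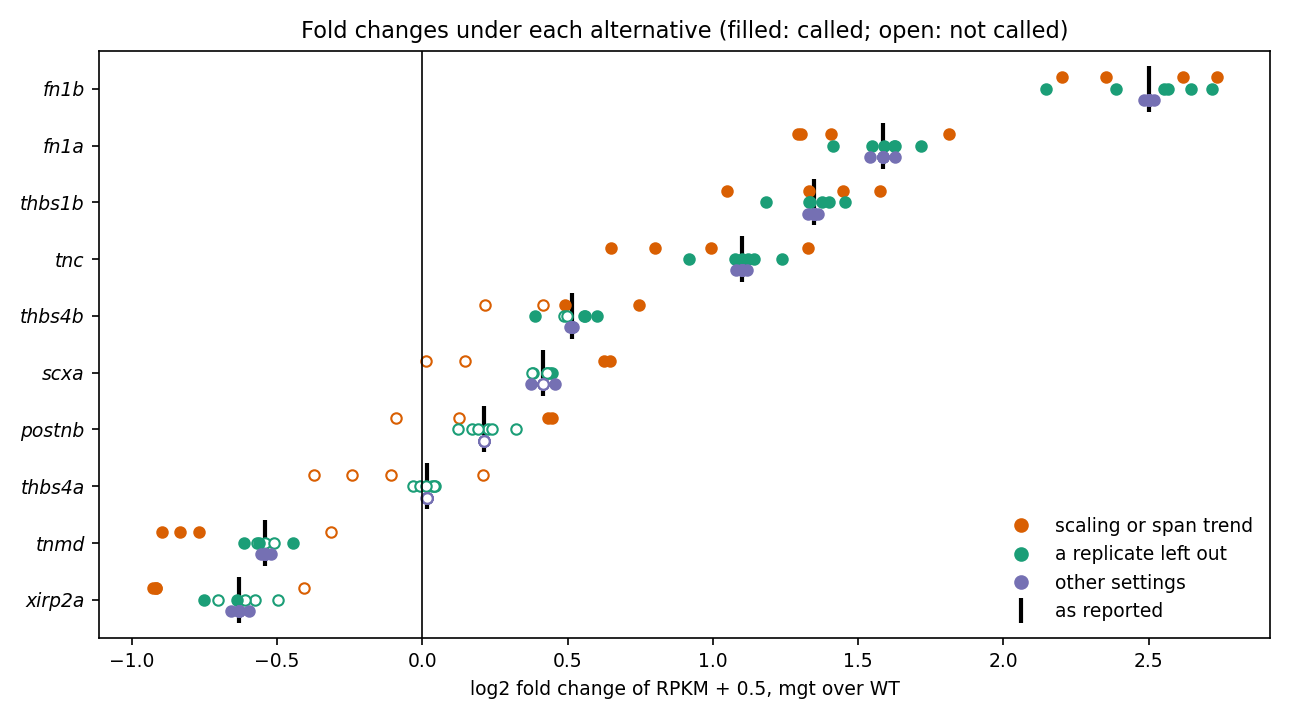
Log2 fold change of each gene, *mgt* over WT, in limma as reported and under each alternative (orange for scaling or span trend, green for a left-out library, purple for other settings, black bar as reported, filled where called). *fn1b* stayed between 2.15 and 2.73, *fn1a* between 1.29 and 1.81, *thbs1b* between 1.05 and 1.58, and *tnc* between 0.65 and 1.33.

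The surrounding pathway was followed in 6 lists of related genes, also chosen with earlier results known. They held 98 tested genes. Of these 55 were called higher, 16 lower and 27 were not called, and their median log2 fold change was 0.57, beside 0.29 over all genes. With median-of-ratios factors 36 were called higher and 19 lower, and with the span trend removed 43 higher and 16 lower. Over all genes tested, 31.8% were called higher and 15.6% lower as deposited. Those shares were 23.8% and 24.3% with median-of-ratios factors, and 30.1% and 13.4% with the span trend removed. In the last setting the median over the lists was 0.39, beside 0.29 over all genes. Among 11 tendon regulators, 5 were called higher and 1, *scxb*, lower. *tgfbr2a*, a type II TGF-beta receptor, had 7.42, 7.47 and 7.51 RPKM in *mgt* and 1.78, 1.23 and 1.49 RPKM in WT, and rose with a log2 fold change of 2.00 (limma adjusted p = 0.00030). Its paralog *tgfbr2b* was the more abundant, with a mean of 20.46 RPKM in *mgt* and 20.25 RPKM in WT. It was not called (log2 fold change 0.016, limma adjusted p = 0.89). *egr1*, an immediate early factor that also acts in tendon, rose with a log2 fold change of 1.29 (limma adjusted p = 0.023), but WT replicate 1 had 20.54 RPKM beside 9.23 and 7.75 in the other WT libraries. Its call ended without any single library other than WT replicate 1 (limma adjusted p = 0.068 to 0.078). The ligand genes *tgfb3* and *tgfb2* rose with log2 fold changes of 0.86 and 0.81, and both calls held under each scaling and without each single library, but not at the stricter fold threshold of 2.378.

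Of 10 relatives of the thrombospondins, tenascin-C and periostin tested, 5 were called higher, 2 lower and 3 neither, with a median of 0.55, and 3 higher and 2 lower with median-of-ratios factors. *thbs2b*, a thrombospondin 2, averaged 16.7 ± 0.91 RPKM in *mgt* and 5.29 ± 0.87 RPKM in WT (SD, n = 3 each) and rose with a log2 fold change of 1.58. *tnxba*, a tenascin-X of fibrillar collagen networks, rose with 1.22. *thbs3b*, a thrombospondin 3, fell with a log2 fold change of -0.57 (limma adjusted p = 0.021), a call that ended with the same sum per library (0.078), without any single *mgt* library (0.077 each) and without WT replicate 3 (0.058). *tnr*, a tenascin of the nervous system, was at 10.49, 10.2 and 10.77 RPKM in *mgt* and at 9.06, 1.43 and 1.66 RPKM in WT and was not called. WT replicate 1 held 592 RPKM of summed neuronal markers, where the WT range was 200 to 592 and the *mgt* range 659 to 685.

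In the collagens and small proteoglycans of tendon, 13 of 23 genes were called higher and 2 lower (median 0.58). The name *col6a3* stands for 2 gene identifiers among them, both called higher. *bgnb*, a biglycan, averaged 15.3 RPKM in *mgt* and 4.74 RPKM in WT, and *chad*, chondroadherin of cartilage and tendon, averaged 5.43 RPKM in *mgt* and 1.51 RPKM in WT. Their log2 fold changes were 1.60 and 1.56. Keratocan (*kera*), best known from the cornea, and the other biglycan gene *bgna* fell with -1.02 and -0.71, and the *bgna* call ended without *mgt* replicate 1 or 2 (limma adjusted p = 0.055 and 0.062). The type I collagen chain *col1a2* had a log2 fold change of 0.59 and was called, and the call ended with median-of-ratios factors (0.28, adjusted p = 0.25), without any single *mgt* library (limma adjusted p = 0.079 to 0.096) and at the stricter fold threshold. With median-of-ratios factors the list had 8 higher and 3 lower calls.

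Of 19 matrix receptors, 12 were called higher and 2 lower (median 0.57). With median-of-ratios factors 6 were called higher and 4 lower, and with the span trend removed 7 higher and 3 lower, where the list median of 0.22 was below the 0.29 of all genes. *itga11a*, the collagen-binding integrin alpha 11, had 7.05, 6.85 and 7.33 RPKM in *mgt* and 1.62, 1.77 and 1.67 RPKM in WT, a log2 fold change of 1.79 (limma adjusted p = 0.00019). Syndecan 4 (*sdc4*), a co-receptor for fibronectin, rose with 1.20. The fibronectin receptor subunit *itga5* rose with 0.65, a call that ended with median-of-ratios factors (0.39, adjusted p = 0.057), quantile normalization (0.25, 0.26), the span trend removed (0.22, 0.26) and without any single *mgt* library (limma adjusted p = 0.054 to 0.060). *cd36*, which binds thrombospondin 1 and takes up fatty acids, fell with -1.63. The laminin-binding integrin *itga6b* fell with -0.57, a call that ended with the same sum per library (adjusted p = 0.099) and without any single *mgt* library (limma adjusted p = 0.052 to 0.082). Its paralog *itga6a*, with a mean of 3.43 RPKM in *mgt* and 1.65 RPKM in WT, was called higher (log2 fold change 0.90, limma adjusted p = 0.012). *itgav* had a log2 fold change of 0.10 and was not called (limma adjusted p = 0.58).

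**Figure D5:**
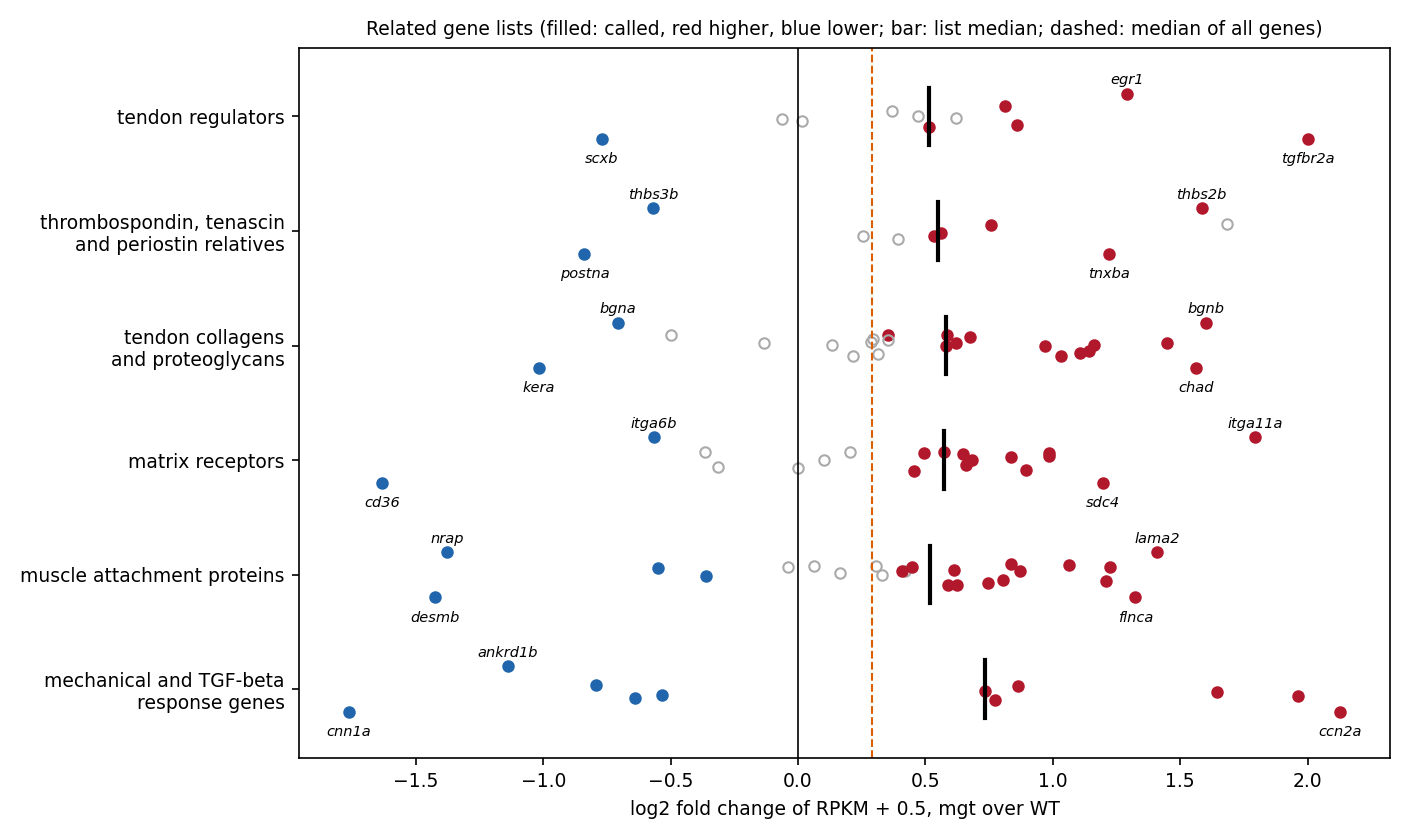
Log2 fold change of RPKM + 0.5, *mgt* over WT, of each tested gene in 6 lists of related genes, with called genes filled (red higher, blue lower), list medians as bars and the median of all genes tested (0.29) dashed. The list medians lie between 0.51 and 0.73, and each list has called genes on both sides of 0.

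Among 24 muscle attachment proteins, 14 were called higher and 4 lower (median 0.52). With median-of-ratios factors 9 were called higher and 4 lower, and with the span trend removed the list median was 0.27, beside 0.29 over all genes. *lama2*, the laminin chain under muscle fibers, averaged 19.4 RPKM in *mgt* and 7.13 RPKM in WT and rose with a log2 fold change of 1.41, and *flnca*, a filamin C, with 1.32. *nrap* and *desmb*, a desmin gene, fell with -1.38 and -1.43, in the direction of *xirp2a*. The other desmin gene, *desma*, went the other way and was far more abundant, with a mean of 171.3 RPKM in *mgt* and 129.8 RPKM in WT. Its log2 fold change was 0.41 (limma adjusted p = 0.033).

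All 11 genes of the mechanical and TGF-beta response list were called as deposited, 6 higher and 5 lower, with a median of 0.73. Over all genes tested, 31.8% were called higher and 15.6% lower. With the same sum per library 6 were higher and 3 lower, where those shares were 43.1% and 9.33%. With the span trend removed 6 were higher and 4 lower (30.1% and 13.4% of all genes). Without any single *mgt* library 6 were higher and 3 lower. *ccn2a*, connective tissue growth factor, had 110.38, 120.6 and 122.69 RPKM in *mgt* and 27.67, 27.37 and 24.71 RPKM in WT, and rose with a log2 fold change of 2.13 (SE 0.092, limma with Benjamini-Hochberg adjustment, adjusted p = 7.8e-05). *ankrd1b*, a muscle ankyrin repeat gene, and the calponin gene *cnn1a* fell with -1.14 and -1.76. *cnn1a* was low in both genotypes (0.217 RPKM in *mgt*, 2.07 RPKM in WT).

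Genes whose pattern over the 6 libraries was most like that of 3 members were looked up among 18033 named genes, by Pearson r of log2(RPKM + 0.5). The most like *fn1b* were *reep3a*, *plagl2* and *zyx* (r = 0.9995, 0.999 and 0.999), of which *zyx* encodes zyxin, a protein of focal adhesions. For *thbs4b* they were *tpm4a*, *fga* and *plac8l1* (r = 0.999, 0.999 and 0.998), and for *scxa* they were *ugt5f1*, *nek8* and *tmtops2b* (r = 0.998, 0.997 and 0.997). Over the 6 libraries, 1506 genes reached r of 0.95 with *fn1b*, 272 with *thbs4b* and 1109 with *scxa*. The libraries are shared by all these genes, and no test was made.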

How the data were processed

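RNA from pools of whole larvae at 4 dpf was depleted of ribosomal RNA and sequenced. The submitters' processing notes name FastQC, cutadapt 5.2, STAR, HTSeq and GRCz11, and the versions of the other tools are not given in the sources used here. The authors deposited RPKM values per gene, and the gene length behind them is not stated. The study's own differential expression test works on read counts, whereas RPKM values were used here. The authors' SD and ratio columns (3) were not used. Their means served only for a check, in which the WT mean column matched WT replicates 2 and 3 without replicate 1 in 32520 genes (tolerance 0.001 RPKM). For WT replicate 3, the library name and the column name in the labels carry different numbers, and the named column was used. One repeated gene line of 32521 was dropped. The 37 mitochondrial chromosome genes are listed at 0 in all libraries.

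After log2 transformation with a pseudocount of 0.5 RPKM, 20435 genes averaging 0.5 RPKM or more entered limma (version 3.58.1, R 4.3.3, eBayes with trend, two-sided). Benjamini-Hochberg adjustment ran over all genes tested, and a call needed an adjusted p under 0.05 and a difference of 25% or more. Fold changes on this scale understate those of low genes. As 1 RPKM is 38.35 to 50.27 reads per kilobase, low genes are the least precise. Each member, *plod3* and each ratio was also tested by an exact permutation over libraries. The code was tested on simulated data.

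The members and lists were chosen with earlier results of these data known. Named are all members, *plod3*, and from each related list up to 2 called genes with the highest and up to 2 with the lowest log2 fold change, and for *scxa*, *thbs4b* and *fn1b* also the 3 genes of highest Pearson r. One gene that this rule names is not reported here. Ratios and the further list genes, such as *itga5*, *tgfb3* and *nppa*, were picked after their values were seen. Of 103 names in the related lists 4 were not found. Positions are those of the table in GRCz11. Alternatives were other pseudocounts (0.1 and 1), filters, scalings, variance settings, a linear fold threshold of 2.378 (the methods' threshold read on the log2 scale), removal of the lowess trend on gene span (0.3), the replicate number as a block, and leaving out each library. Python 3.11.15 with numpy 2.4.6, pandas 2.3.3, scipy 1.17.1 and matplotlib 3.10.9 made tables and plots.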

Additional observations from a re-analysis of the deposited data

How the results depend on the processing

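Of 170 values of the 10 genes under alternatives, 140 kept their call and direction, 22 lost a call, 2 gained one and 6 changed sign. The sign of *thbs4a* changed with median-of-ratios factors (-0.24), quantile normalization (-0.37), and the span trend removed (-0.11), and over single left-out libraries it ranged from -0.032 (*mgt* replicate 1) to 0.043 (*mgt* replicate 2). That of *postnb* changed with median-of-ratios factors (-0.091). Leaving out 1 library gave 4 to 8 called members, 4 without any single *mgt* replicate (19.9% to 20.9% of all genes called) and 8 without WT replicate 1 (70.2%). It gave 4074 to 14350 called genes of all tested, the highest without WT replicate 1, and 48 to 77 called genes in the related lists. A linear fold threshold of 2.378 left 3 members, 2174 genes and 16 list genes. With the replicate block limma called 7 members, 8121 genes and 64 list genes, and *scxa* was the member lost (adjusted p = 0.080). Same-numbered libraries, which come from different batches, deviated with correlations of -0.0301, 0.0298 and 0.0265. The labels name no link between them beyond the number, and these values cannot show whether there was one. Apart from the losses at that fold threshold, among called list genes named by rule *egr1*, *thbs3b*, *bgna* and *itga6b* lost their call 16 times over the alternatives run, and none changed sign. The cause of these changes was not tested.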
